A study of Mus musculus with 5 samples.

Results

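Ephrins and their Eph receptors were measured in the aortas of diabetic and control mice. The genes described are the ligands Efnb2, Efnb1, Efna1 and Efna5 and the receptors Ephb4, Ephb2, Ephb3, Epha2, Epha3 and Epha4. They were taken as the probe sets of the expression array whose annotated symbol is one of these 10 names, and 18 of the 22626 probe sets other than controls met that rule. These 18 stood for 9 genes, since the annotation used gave no probe set for Ephb2, which was not analysed here. The list was selected on the db/db against db/+ signals of Efnb2, which were already known, so the values of all members in that comparison are a description, without a test.

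The samples were aortas of male mice aged 16 to 20 weeks on regular chow, all of the strain BKS.Cg-m +/+ Lepr db/J. Mice homozygous for db, a mutation of the leptin receptor gene Lepr, become obese and diabetic; the controls were heterozygotes, db/+, of the same colony, so both groups carry db. The strain name also lists m, the misty coat colour allele, and the labels do not say which mice carried it. Per the design text, adventitia and periaortic fat were removed and each array held RNA pooled from 6 aortas, in independent pools. The 5 arrays analysed were db/db replicates 1, 2 and 3 and db/+ replicates 2 and 3, so n = 3 and n = 2 throughout (the remaining db/+ pool of the design was not analysed here), and a spread between arrays is one between pools.

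Eph receptors are receptor tyrosine kinases, and their ligands, the ephrins, are themselves fixed to the cell surface, so signals pass between touching cells and in both directions. Ephrins of class A hang on a lipid anchor and bind mainly EphA receptors, while those of class B span the membrane and bind mainly EphB receptors. In blood vessels ephrin-B2 marks the arterial side, in endothelium and in smooth muscle, and its receptor EphB4 marks veins.

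Values are MAS5 signals on a linear scale. MAS5 combines the short probes that make up a probe set into a single signal after background correction, and brings all arrays to the same trimmed mean. Log2 changes are db/db minus db/+ on the scale log2(signal + 16), with the standard error (SE) from limma, and understate the change of weak signals. A probe set was tested if its mean level passed the 40th percentile, a signal of about 39.5. This kept 13575 probe sets and 11 of the 18 of the members, which covered 7 genes. Both Efna1 probe sets, the Efna5 probe set and 1 or 2 probe sets of Efnb2, Epha3 and Epha4 lay below it and are given as signals.

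Smooth muscle and endothelial markers were present on every array. Myh11, the smooth muscle myosin, had signals between 3366.5 and 3916.4. Summed over 8 smooth muscle markers the signal was 23177 to 28208 in db/db and 21219 to 24060 in db/+. Over 10 endothelial markers it was 1261 to 1662 in db/db and 1988 to 2108 in db/+, which did not overlap, and 9 of the 10 had a log2 change below 0. Genotypes were separated for 6 of the 10, and overlapped for Cdh5 (−0.06), Cldn5 (−0.09), Erg (−0.04) and Kdr (0.04). Only Erg among the 10 was under a signal of 16 on every array, and none was at 0. Macrophage markers summed to 1946 to 2281 in db/db and 3250 to 4049 in db/+, and 7 of 7 had a log2 change below 0. The summed signal was also lower in each db/db array for lymphatic endothelial (357 to 478 against 545 to 569, 2 of 4 below 0) and mesothelial markers (386 to 447 against 862 to 909, 4 of 5). For hepatocyte markers it was 257 to 483 against 1138 to 1146, with 4 of 5 below 0. The fifth, Apoa1, was higher in db/db, at 98.8, 68.1 and 51.9 against 41.3 and 27.1. Sums of fibroblast, lymphocyte, white and brown adipocyte, cardiac and nerve markers overlapped between the genotypes. Fat and adventitia had been removed per the design text, yet their transcripts had high signals on all 5 arrays: Fabp4 of adipocytes had signals of 3129.6 to 5654.4, Adipoq 1393.8 to 2790.7, Ucp1 of brown fat 2136.2 to 4334.5 and Dcn of fibroblasts 4060.0 to 4900.3. The part of these markers in the values below was not tested, and in pooled tissue fewer cells of a type and less RNA per cell cannot be told apart.

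Efnb2 lies on chromosome 8 and had 4 probe sets, all annotated to the same sequence record, U30244. Its promoter is shown because Efnb2 is the gene on which the results turn; the arrays measured transcripts and nothing at this site. The 250 bases before the start of Efnb2 in RefSeq (GRCm38.p6, chr8:8661243-8661492, minus strand, 5′ to 3′) are printed with GC boxes and CCAAT boxes in capitals.
Efnb2 promoter: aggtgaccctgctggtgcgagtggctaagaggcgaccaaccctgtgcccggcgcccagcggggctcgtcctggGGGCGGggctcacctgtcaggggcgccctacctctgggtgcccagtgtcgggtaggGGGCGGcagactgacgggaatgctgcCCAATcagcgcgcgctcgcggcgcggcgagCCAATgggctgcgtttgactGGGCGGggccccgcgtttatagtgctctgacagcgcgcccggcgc
On both strands it held 3 matches to GGGCGG, the GC box, and 2 to CCAAT. At least 1 match was found in 33.0% and 33.8% of 32536 RefSeq promoters of this length. TGGGAA, the core that the Notch effector RBPJ binds, was not among these letters and was found in 21.6% of promoters. G and C made up 72% of the bases, against a median of 52.4% over all promoters.

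The 2 tested probe sets of Efnb2 went in opposite directions. At 1419638_at the signal was 325.7, 213.7 and 399.4 in the 3 db/db arrays and 91.3 and 84.7 in the db/+ arrays. Every db/db array was above both db/+ arrays, and the lowest of them, replicate 2, was still well clear. Means were 313 ± 93.5 (SD) and 88.0 ± 4.67, a 3.56-fold ratio and a log2 change of 1.62 (SE 0.24).

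At 1419639_at the signal was 112.4, 114.6 and 140.6 in db/db and 215.5 and 242.8 in db/+. Here every db/db array was below both db/+ arrays. Means were 123 ± 15.7 and 229 ± 19.3, a ratio of 0.535 and a log2 change of −0.83 (SE 0.17).

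The other 2 probe sets of Efnb2 were weak. At 1449548_at the signal was 5.9, 7.4 and 23.6 in db/db and 35.2 and 28.3 in db/+, where the groups did not overlap. At 1449549_at it was 27.5, 26.5 and 39.2 in db/db and 48.9 and 15.5 in db/+, where the groups overlapped and the db/+ arrays lay furthest apart. Thus 1 tested probe set of Efnb2 was higher in db/db and 1 was lower. The 2 weak ones lay below the filter, and at these signals no direction was read. Where along the transcript each of them reads was not examined here.

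**Figure D1:**
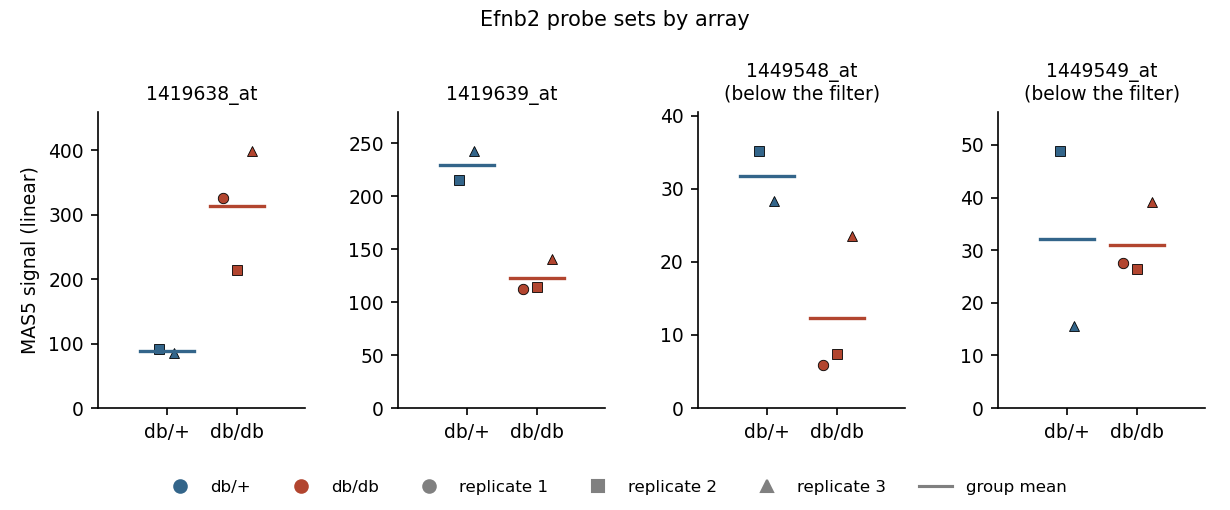
MAS5 signal (linear axis, each panel on its own scale from 0) of the 4 Efnb2 probe sets in each array, db/+ in blue and db/db in red, with a line at each group's mean. The db/db arrays lie above db/+ at 1419638_at (313 against 88.0 on average), below it at 1419639_at (123 against 229), and at low signals in the remaining panels.

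The 2 tested probe sets of Efnb2 were also set against each other within each array. Since each separated the genotypes, in opposite directions, their difference had to do so too, and it is given as a description. The log2 value of 1419638_at minus that of 1419639_at was 1.41, 0.81 and 1.41 in db/db and −1.11 and −1.36 in db/+. Its level depends on how well each probe set binds, so only its change between arrays is read. It averaged 1.21 ± 0.34 (SD) in db/db and −1.24 ± 0.18 in db/+, a difference of 2.45, which stayed between 2.32 and 2.65 when any 1 array was left out.

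Among all probe sets tested, 1419638_at had the highest log2 change of the 13575, and 1419639_at was number 123 counted from the lowest. In 2879 genes more than 1 probe set was tested. The log2 changes of their probe sets differed by a median of 0.21, with a 95th percentile of 0.64, and Efnb2 ranked 1 with its 2.45. Efnb2 was chosen on these same signals, so its ranks are a description and test nothing. Probe sets that separated the genotypes in opposite directions were found in 70 of these genes (2.43%). By the same measure Efnb1 had 0.24 and the 2 tested probe sets of Epha3 differed by 0.01.

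**Figure D2:**
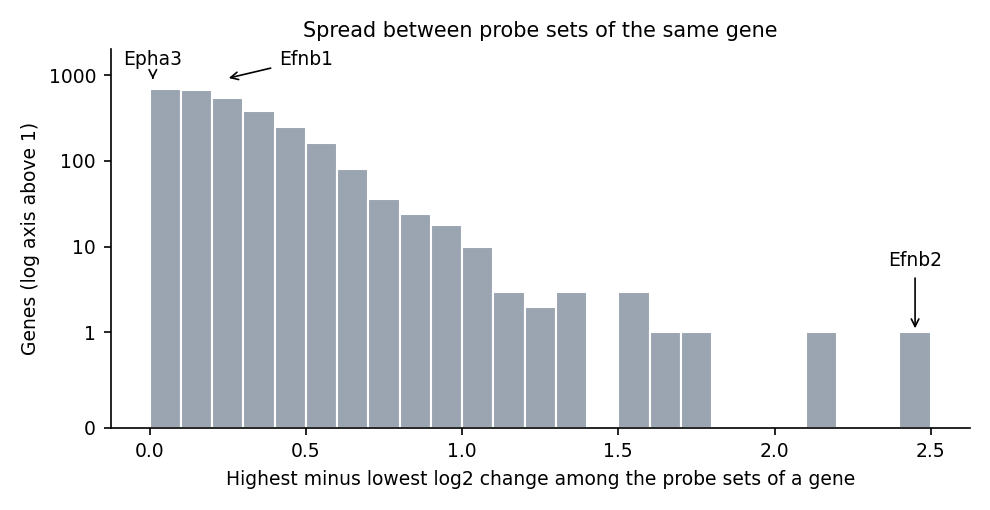
Histogram of 2879 genes by the difference between the highest and the lowest log2 change among their tested probe sets (horizontal axis, log2), with the number of genes on an axis that is logarithmic above 1. Efnb2, chosen on these same signals, lies at the far right at 2.45, while Efnb1 (0.24) and Epha3 (0.01) lie in the bulk.

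At an adjusted p under 0.05 with limma, 0 of the 11 member probe sets passed, where 0.081% of all probe sets did (11, every one lower in db/db). At an unadjusted p under 0.05 the count was 2, both probe sets of Efnb2, against 8.13% of all; 1 of them was higher (3.98% of all) and 1 lower (4.15%). In 5 of 14 alternative settings 1 member passed, 1419638_at each time. Since the comparison was known when the genes were chosen, nothing is read from these counts. The genotypes were fully separated at 2 of the 11, again those of Efnb2, against 25% of all probe sets tested (13.1% higher and 11.9% lower in db/db).

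**Figure D3:**
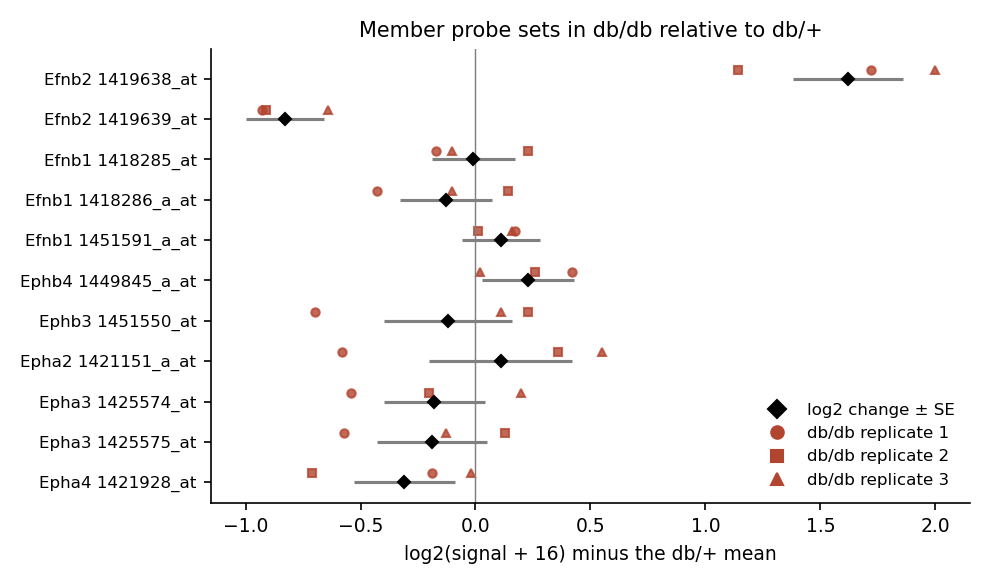
Log2(signal + 16) relative to the db/+ mean for the 11 tested member probe sets: diamonds with bars give the log2 change and its SE, red symbols the 3 db/db arrays. Efnb2 stands at 1.62 and −0.83, and the other probe sets lie between −0.31 and 0.23.

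Efnb1, the X-linked ligand closest in kind to Efnb2, had 3 tested probe sets and overlapped between genotypes at each. At 1418286_a_at the signal was 110.8, 172.7 and 143.0 in db/db and 142.1 and 168.4 in db/+, so that db/db held both the lowest and the highest array (log2 change −0.13, SE 0.20). At 1418285_at it was 51.4, 73.4 and 55.1 against 59.3 and 60.7, a ratio of means of 0.999 (−0.01, SE 0.18). At 1451591_a_at it was 109.6, 96.2 and 108.5 against 85.1 and 106.9 (0.11, SE 0.17).

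The class A ligands were weak. Efna1, which endothelial cells make in response to inflammatory cytokines, had signals of 27.6, 43.7 and 43.1 in db/db and 35.2 and 15.9 in db/+ at 1416895_at, and between 4.9 and 20.4 at its second probe set. Efna5, best known as a repulsive cue for growing axons, had 24.5, 20.9 and 17.7 against 19.3 and 3.6. Groups overlapped at all of them, and at these signals no direction was read.

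Ephb4, the receptor that pairs with ephrin-B2 between veins and arteries, had a signal of 145.5, 129.4 and 106.7 in db/db and 87.4 and 125.8 in db/+. The 2 highest arrays were db/db, but replicate 3 lay below db/+ replicate 3. Means were 127 ± 19.5 and 107 ± 27.2, a log2 change of 0.23 (SE 0.20), which was 0.01 without db/+ replicate 2 and 0.46 without db/+ replicate 3. Ephb3, a further receptor for class B ephrins, had 21.5, 55.2 and 49.7 in db/db and 37.7 and 52.9 in db/+ (−0.12, SE 0.28). Its db/db replicate 1 was the lowest array, and without it the log2 change was 0.17.

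Among the EphA receptors, Epha2, the main receptor of ephrin-A1 in endothelium and epithelium, lies on chromosome 4, as Lepr does. Its signal was 19.9, 53.1 and 62.7 in db/db and 33.9 and 41.7 in db/+. The db/db arrays thus fell on both sides of db/+, and the log2 change of 0.11 (SE 0.31) became 0.46 when db/db replicate 1 was left out and −0.11 when replicate 3 was.

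Epha3, a receptor of mesenchymal cells that binds ephrin-A5, had 154.6, 262.3 and 216.0 in db/db and 281.9 and 200.1 in db/+ at 1425575_at (−0.19, SE 0.24). At 1425574_at it had 60.8, 81.2 and 111.8 against 95.3 and 95.4 (−0.18, SE 0.22). Both probe sets had their lowest array in db/db replicate 1, and without that array both log2 changes were 0.00. The third, 1426057_a_at, was weak, with 14.8 to 33.0 over all arrays.

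Epha4, a receptor that binds ephrins of both classes, had 56.2, 34.6 and 65.5 in db/db and 58.7 and 75.3 in db/+ at 1421928_at, a log2 change of −0.31 (SE 0.22) with overlapping groups. Its second probe set, 1421929_at, read 3.6, 3.5 and 3.9 in db/db and 12.1 and 17.7 in db/+. The groups did not overlap there, but all of these signals lie far below the 39.5 of the filter.

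Of the 9 tested member probe sets other than those of Efnb2, 6 had their lowest value of all arrays in db/db replicate 1, as did 22.1% of all probe sets tested. All 9 overlapped between genotypes.

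**Figure D4:**
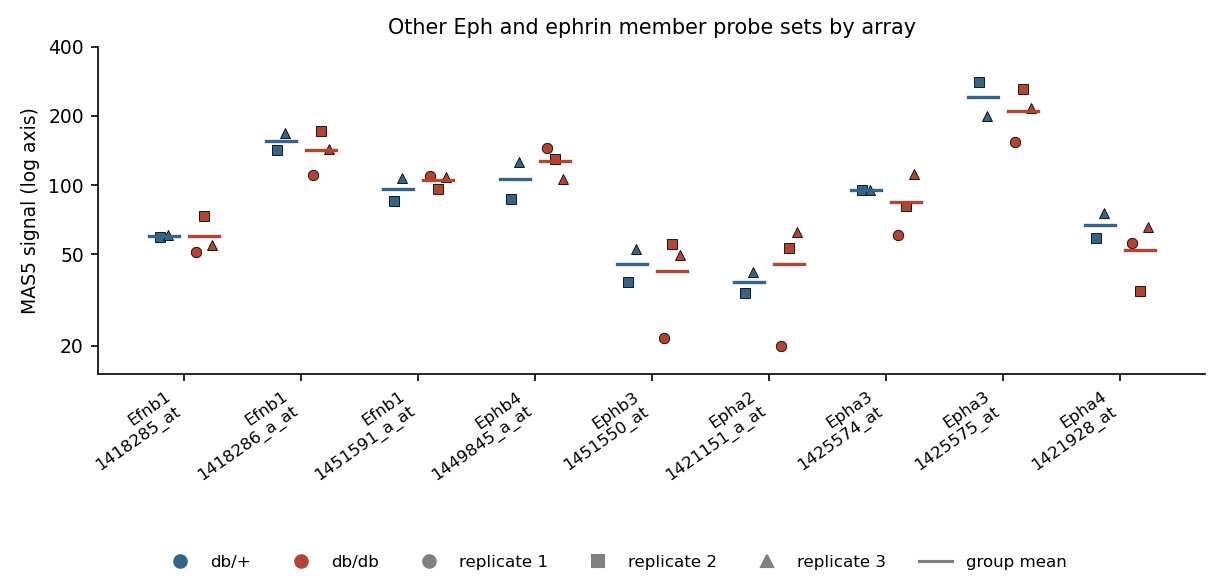
MAS5 signal (log axis) of the 9 tested member probe sets other than Efnb2, by array, with db/+ in blue, db/db in red and a line at each group's mean. The genotypes overlap at every one, and db/db replicate 1 (red circle) is the lowest array at 6 of them.

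The rest of the Eph and ephrin family was near the lower end of the signal range. Of 12 further family genes, 10 had a probe set, 15 probe sets in all, with signals from 0.4 to 62.4, and 13 of the 15 lay below the filter. The tested ones were those of Efna4, 46.4 ± 16.3 in db/db against 39.0 ± 3.39 in db/+ (log2 change 0.15, SE 0.23, limma adjusted p = 0.91), and Efna2, 52.8 ± 11.1 against 55.6 ± 0.354 (−0.07, SE 0.18, adjusted p = 0.95). Neither passed, and the log2 change of each turned sign without 1 array: Efna4 was −0.01 without db/db replicate 1, and leaving out replicate 3 gave 0.06 for Efna2. The groups did not overlap at 1 of the 15, a probe set of Epha5 with 26.9, 38.8 and 27.6 in db/db and 21.6 and 21.8 in db/+.

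Proteins that carry the signal inside the cell were followed in a list of 49 genes, among them adaptors, Src-family kinases, guanine exchange factors, and the proteases that cut ephrins. Probe sets were annotated for 40 and 31 were tested, 1 probe set per gene. With limma 0 passed in either direction, and 4 had an unadjusted p under 0.05, all 4 higher in db/db; that count was 1 to 3 when any 1 array was left out. Their share of 12.9% stands against 8.60% of the 8263 named genes tested the same way. The 4 stayed 4 with a pseudocount of 1, but were 2 with a pseudocount of 64, no filter, median centring or array weights. Genotypes did not overlap for 3 higher and 2 lower partners (16.1% against 25.6%). The median log2 change was −0.01, against 0.02 over those genes.

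The partner with the smallest p was Ngef, which encodes ephexin-1, a guanine exchange factor that EphA receptors act through. Its signal was 161.3, 146.0 and 117.2 in db/db and 83.2 and 92.8 in db/+, with no overlap (log2 change 0.59, SE 0.18, limma adjusted p = 0.39). Anks1, an adaptor that binds Eph receptors, had 217 ± 10.6 against 156 ± 19.2 (0.45, SE 0.16, adjusted p = 0.49). Pick1 and Grip1 encode PDZ proteins that can hold the tail of class B ephrins. Pick1 had 66.3, 61.7 and 47.7 against 37.5 and 42.5 (0.41, SE 0.17, adjusted p = 0.60), and Grip1 had 76.4, 71.5 and 54.4 against 56.6 and 29.6, which overlapped (0.53, SE 0.23, adjusted p = 0.61). The log2 change of Grip1 was 0.19 without db/+ replicate 3 and 0.86 without db/+ replicate 2. For the lipid phosphatase gene Inppl1 the log2 change was 0.24 (SE 0.20, limma adjusted p = 0.83), −0.01 without db/+ replicate 3 and 0.50 without db/+ replicate 2. None of these passed over all probe sets.

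Efnb2 and Ephb4 belong to the genes that set arterial and venous identity, and 39 others of this kind were followed, of which 36 were tested. With limma 0 passed, while 3 were higher and 6 lower in db/db at an unadjusted p under 0.05, together 25.0% against 8.60% of all named genes tested. That count of 9 was 3 without db/+ replicate 2 and 4 without db/+ replicate 3. A log2 change below 0 was found for 24 and above 0 for 12, with a median of −0.20 against 0.02 over all. Genotypes did not overlap for 10 lower and 3 higher genes (36.1% against 25.6%). The list shares Emcn, Tek, Kdr and Flt4 with the endothelial and lymphatic markers, and the endothelial sum was lower in every db/db array. Without these 4 genes the median of the remaining 32 was −0.19, with 21 below 0. Other genes of endothelium, such as Gja4 and Smad6, are still among the 32. The part of endothelial content in this median was not tested.

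The genes of this list with the smallest p went both ways. Gja1, the connexin shared by smooth muscle and endothelium, had 1596.9, 1557.3 and 1410.3 in db/db and 1121.7 and 750.5 in db/+ (0.72, SE 0.20, limma adjusted p = 0.33), and its other probe sets had log2 changes from 0.06 to 0.47. Without db/+ replicate 3 the change at the first probe set was 0.43, and without db/+ replicate 2 it was 1.0. The transcription factor gene Mecom had 67.9, 51.4 and 60.6 against 33.4 and 39.9 (0.53, SE 0.17, adjusted p = 0.43). Its db/+ mean of 36.6 lay below the filter signal of 39.5, so Mecom was tested only through db/db. It is among the higher genes counted above, and its log2 change was 0.30 with a pseudocount of 64. Smad6, an inhibitor of BMP signalling in endothelium, had 407.9, 394.4 and 556.0 against 818.2 and 617.9 (−0.65, SE 0.21, adjusted p = 0.43). The netrin receptor gene Unc5b had 128 ± 15.1 against 189 ± 19.4 (−0.52, SE 0.17, adjusted p = 0.44), and Gja4, a connexin of arterial endothelium, had 186 ± 20.1 against 270 ± 36.3 (−0.50, SE 0.17, adjusted p = 0.47). The 5 did not overlap between genotypes, and none passed.

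Notch signalling lies upstream of Efnb2 in arterial endothelium. Its receptors, ligands and targets were grouped from the list after their values were seen, and 10 of the 11 were tested (Dll4 was not). The log2 change was below 0 for 8: Notch1 (−0.28), Notch3 (−0.42), Notch4 (−0.21), the ligand genes Jag1 (−0.12) and Jag2 (−0.45), the effector gene Rbpj (−0.19) and the targets Hes1 (−0.19) and Hey1 (−0.47). It was 0.03 for Hey2 and 0.36 for Heyl, and none passed (limma adjusted p 0.60 to 0.99). Over all 8263 named genes tested, 3806 were below 0. SEs ran from 0.15 for Heyl to 0.33 for Hey1, and genotypes overlapped for all but Notch3 and Heyl. Hey1 had 14.8 in db/db replicate 1, 58.1 and 47.9 in the other db/db arrays, and 53.8 and 59.9 in db/+. As the group was formed with its values seen, the count of 8 is a description.

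**Figure D5:**
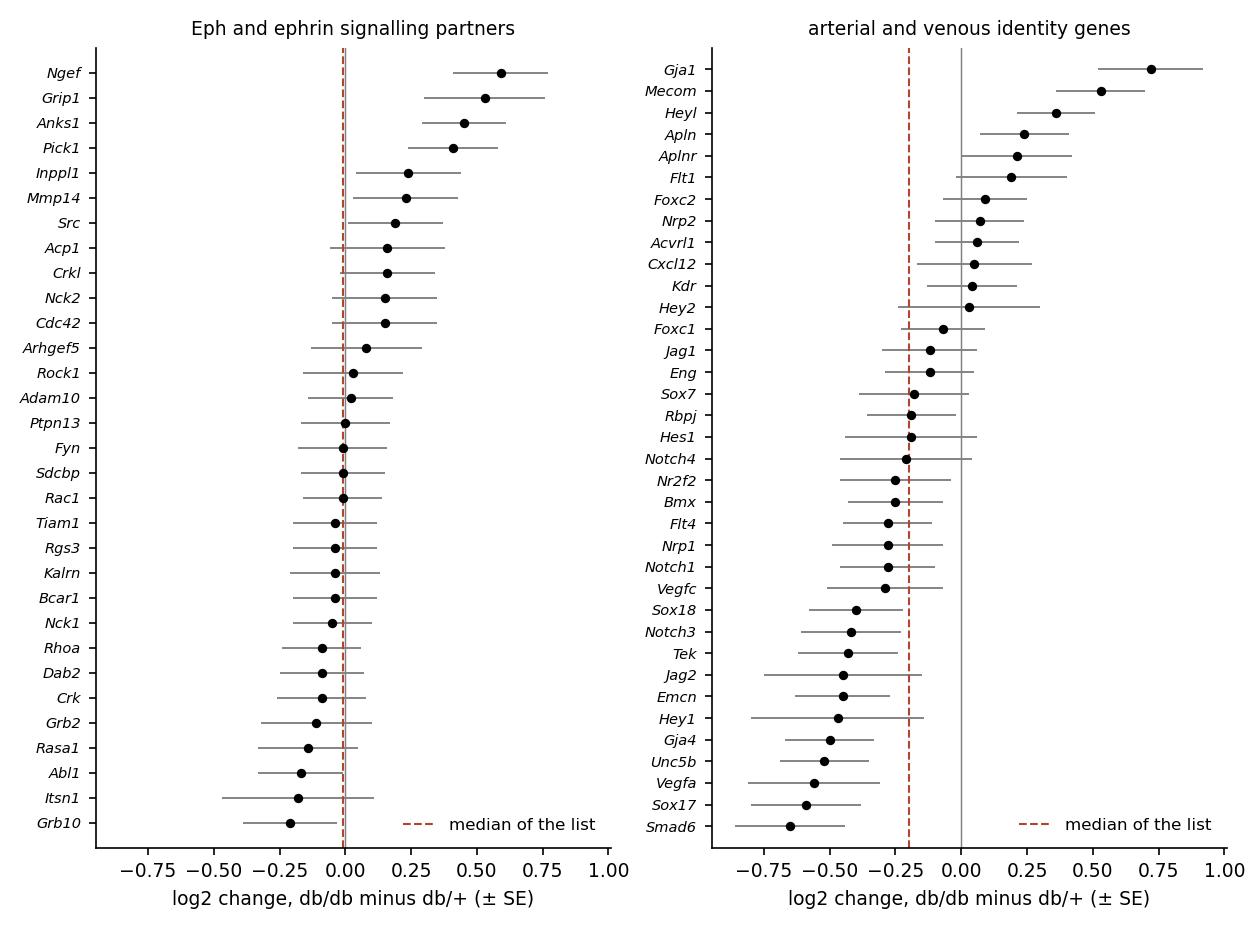
Log2 change (db/db minus db/+) with SE for the 31 tested signalling partners and the 36 tested arterial and venous identity genes, 1 probe set per gene, ordered by size, with a dashed line at each list's median (−0.01 and −0.20). Ngef and Gja1 head the lists at 0.59 and 0.72, and Smad6 is lowest at −0.65.

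Probe sets of other genes with a pattern over the 5 arrays most like that of Efnb2 were sought by the root mean square difference of log2 values, each centred on its mean. Nearest to 1419638_at were a probe set of Atp5k, a subunit gene of ATP synthase (difference 0.27), Elovl3, a fatty acid elongase of brown fat (0.33), and a probe set of Trim62, a ubiquitin ligase gene (0.33). Elovl3, for example, had 96.4, 103.0 and 200.8 in db/db and 47.8 and 47.4 in db/+. Nearest to 1419639_at were Svep1, an extracellular matrix gene (0.04), and a probe set of Rbm14, an RNA-binding protein gene (0.06). Ltc4s, the leukotriene C4 synthase of myeloid cells, followed (0.07). The size of a change enters this difference, and 1419638_at had the highest log2 change of all tested. The distances are therefore not compared between the Efnb2 probe sets. Svep1 had 223.1, 221.8 and 283.4 in db/db and 430.5 and 444.7 in db/+.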

How the data were processed

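The authors deposited linear signal intensities per probe set, made with MAS5 (version not given) per the submitters' processing notes, from arrays hybridised with biotinylated cRNA. Of 22690 probe sets, 64 controls were left out. The platform annotation gave 1 symbol for 20380 probe sets, several for 691 and none for 1555. Genome build, probe positions and detection calls were not used here, and chromosomes and promoters are those of RefSeq. The number of arrays limits the precision.

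Log2(signal + 16) was fitted with limma 3.58.1 in R 4.3.3 (lmFit, eBayes, two-sided, no covariates) on all 5 arrays, with Benjamini-Hochberg adjustment over all 13575 probe sets tested and a threshold of 0.05. A gene of a list is read by its probe set with the highest mean. Up to 5 genes per list with the smallest p are named, and the 3 nearest probe sets for each of Efnb2's. The fit was tested on simulated data.

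The members and lists were chosen with earlier results of these data known. The rule spoke of 2 Efnb2 probe sets; the annotation gave 4, and all are reported.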

Additional observations from a re-analysis of the deposited data

How the results depend on the processing

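The number of probe sets past the threshold, 11 in the fit reported, was 1 with a pseudocount of 1, 35 with 64, 1 with no filter, 22 with a filter at the 60th percentile, 19 with median centring, 39 with eBayes trend and robust and 48 with array weights, and it ranged from 0 to 28 when 1 array was left out (0 without db/+ replicate 2, with 761 at an unadjusted p under 0.05). It was 20 with the replicate number as a block. The numbers shared by both genotypes, 2 and 3, had correlations of deviations of 0.11 and 0.00, and nothing in the labels pairs them. In none of the alternatives did a gene of the 3 lists pass. The difference between the tested Efnb2 probe sets was 1.93 with a pseudocount of 64 and 2.35 with the replicate block. In all 14 alternatives 1419638_at stayed above 0 (1.28 to 1.86) and 1419639_at below it (−0.92 to −0.65). The changes of filter and eBayes with trend and robust cannot alter a log2 change, so not all of these are separate checks. Efnb2 was chosen on these signals, and the ranges are a description. Beyond the members, single genes were compared only if named from the 3 lists by smallest p, so the Notch genes were not. Among the genes compared, Efna4 turned to −0.01 with the block. Replicate 1 is in db/db only, so the block gives the same log2 changes as leaving out db/db replicate 1. Those 2 alternatives are 1 result for log2 changes. When 1 array was left out, 3 of them turned sign: Efna4 (−0.01 to 0.38), Efna2 (−0.17 to 0.06) and Inppl1 (−0.01 to 0.50). The cause was not tested. Fits without a db/+ array assume that the 1 left varies as db/db does.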

Other observations

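Of the 6 genes nearest in pattern to Efnb2, each taken for a probe set with a large change, Trim62, Atp5k and Rbm14 had more than 1 tested probe set. Between the probe sets of each, log2 changes differed by 1.71 for Trim62, 1.20 for Atp5k and 1.02 for Rbm14. For Trim62 and Atp5k they did not separate the genotypes in opposite directions. At 1436806_at of Trim62 the signal was 93.5, 68.4 and 67.9 in db/db and 15 and 22.9 in db/+, so that this probe set passed the filter on low values only through db/db. Among the 2879 genes with more than 1 tested probe set, Mvb12a, with a difference of 2.12, ranked next to Efnb2.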
